A study of Homo sapiens with 2 samples.

Results

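The STAT and IRF transcription factors described here are 9 genes: STAT2, STAT3, STAT5A, STAT5B and STAT6 of the STAT family, and IRF1, IRF2, IRF7 and IRF9 of the interferon regulatory factor family. They were taken by gene name, from a set chosen with earlier results of these data known. All 9 were found among the 25240 genes of both deposited transcript tables. RNA was measured in 2 libraries of T47D, an established human luminal A breast cancer line. The control cells carried a non-targeting hairpin (library shNT). The other cells carried a hairpin that targets RON (library shRON), and RON is the product of MST1R, a receptor tyrosine kinase. Both sets of cells were transduced, selected in puromycin at 5 ug/mL, kept in puromycin at 1 ug/mL, and grown in high-glucose DMEM with 10% serum. With 1 library per hairpin there was no replicate check, so every difference describes these 2 libraries, and no p-value is given.

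STAT proteins wait in the cytoplasm until a cytokine receptor and its bound JAK kinase phosphorylate them on tyrosine. They then pair and enter the nucleus, where most STAT pairs bind DNA at GAS elements. The type I and type III interferons act through ISGF3, a complex that contains STAT2 and IRF9 and binds interferon-stimulated response elements. IRF proteins bind related sequences: IRF1 and IRF7 activate transcription, and IRF2 is best known as an antagonist of IRF1. In breast epithelium, STAT5A and STAT5B carry prolactin signals, and STAT3 acts in involution of the gland.

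Promoter sequences are shown for the 2 genes in which a GAS-type motif, TTCNNNGAA, lay upstream of the transcription start. The table of RefSeq promoters used here, of build GRCh38.p14, matched 7 of the 9 genes, with several starts for STAT5A. IRF2 and IRF7 had no match. The 250 bases before the start of IRF1 (minus strand, chr5:132490774-132491023) and of IRF9 (plus strand, chr14:24161015-24161264) are printed from 5′ to 3′, with the motif in capitals.
IRF1: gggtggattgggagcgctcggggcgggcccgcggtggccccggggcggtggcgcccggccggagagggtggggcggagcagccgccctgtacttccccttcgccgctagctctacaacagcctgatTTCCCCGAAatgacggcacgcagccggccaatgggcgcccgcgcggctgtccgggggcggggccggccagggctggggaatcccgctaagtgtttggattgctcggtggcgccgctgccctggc
IRF9: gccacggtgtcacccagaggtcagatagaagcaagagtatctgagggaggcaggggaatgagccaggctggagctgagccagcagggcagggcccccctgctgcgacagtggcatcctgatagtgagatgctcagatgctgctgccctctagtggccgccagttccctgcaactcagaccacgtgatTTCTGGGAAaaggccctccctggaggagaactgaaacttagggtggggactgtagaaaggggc
The motif of IRF1 began 124 bases before the start and that of IRF9 63 bases before it. The motif reads the same on both strands. It was present in the same 250-base window of 6.57% of all 35116 promoters in the table. A motif of the type bound by IRF proteins, GAAANNGAAA on either strand, occurred in 3.02% of those windows and in 0 of the windows of the 7 matched genes. No match says only that these letters were not in the window, and a match is a description of sequence, not of binding.

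Of the 9 genes, 7 were at least 1.5-fold higher in the shRON library and 0 were lower by that size. Among all 12493 measured genes, 9.94% were higher and 8.85% lower by the same rule. The fold was taken on FPKM + 1, where FPKM is the number of fragments scaled to transcript length and library size, and a gene counted as measured when it reached 1 FPKM in either library. All 9 genes reached 1 FPKM in both libraries. The median log2 ratio of the 9 was 0.88, with quartiles of 0.63 and 1.15, beside a median of 0.04 and quartiles of -0.25 and 0.30 over all measured genes. At 2-fold, 3 of the 9 were higher (STAT5A, IRF1 and STAT2), against 3.32% of all measured genes, and 0 were lower, against 2.17%. All 4 IRF genes passed 1.5-fold, with a median log2 ratio of 0.91, and 3 of the 5 STAT genes did, with a median of 0.63. A log2 ratio above 0 was found in 8 of the 9 (54% of all measured genes) and one below 0 in STAT6 alone (46% of all measured genes). STAT3 was above 0 but under the rule.

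**Figure D1:**
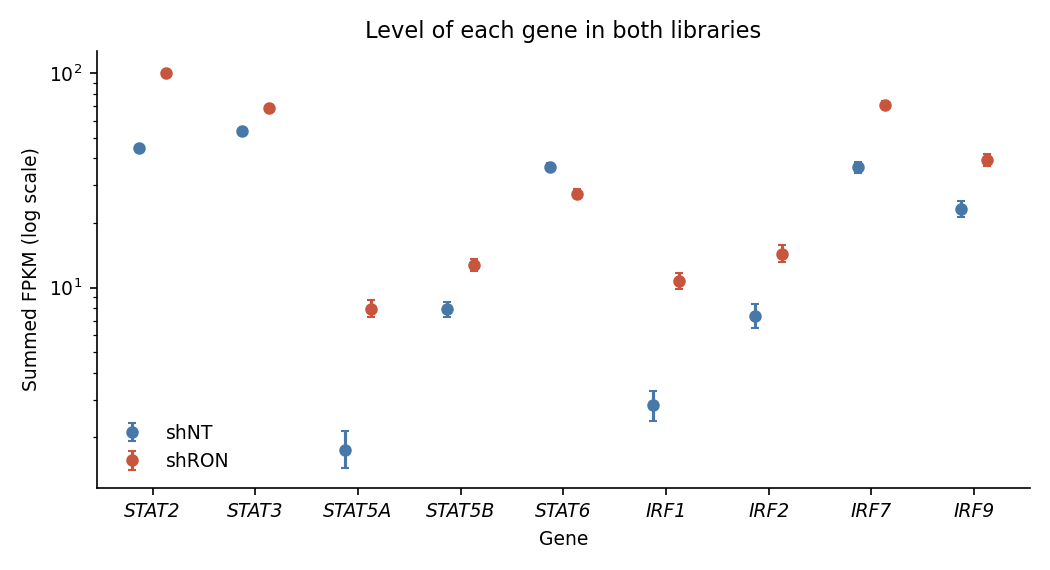
Summed FPKM (log axis) of each STAT and IRF gene in the shNT and shRON libraries; bars are approximate 95% counting intervals from estimated fragments. The shRON point lies above the shNT point for 8 of the 9 genes, and below it for STAT6.

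**Figure D2:**
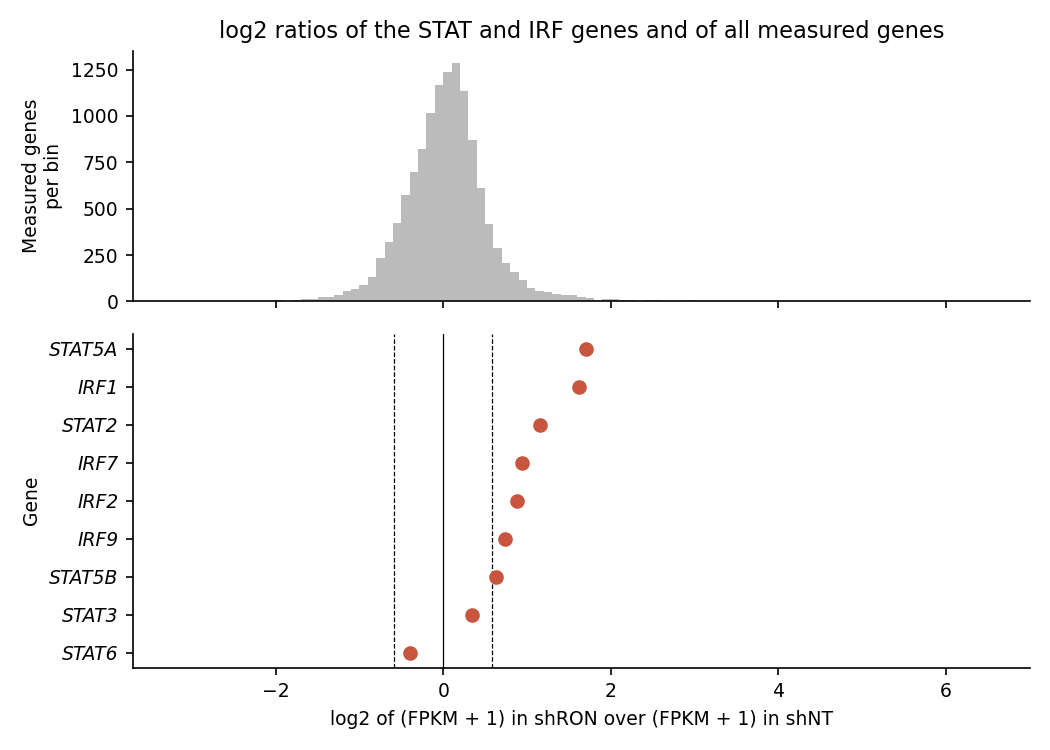
Above, the number of measured genes per bin of log2 ratio; below, the log2 ratio of each STAT and IRF gene, with dashed lines at 1.5-fold either way. STAT5A (1.70) and IRF1 (1.62) lie farthest right, and STAT6 (-0.40) alone lies left of 0.

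The hairpin's target was checked first. Its gene, MST1R, went from 12.1 FPKM under the control hairpin to 9.10 in shRON (log2 ratio -0.38), a difference under the 1.5-fold rule, and 17.7% of measured genes were lower by more. The libraries held about 11900000 and 11500000 estimated fragments, and all 19 transcripts of the STAT and IRF genes carried the status OK in both. All 10 luminal epithelial markers reached 1 FPKM in both libraries, and their sum was 8765 FPKM in shNT and 6606 in shRON. The keratin gene KRT8 (log2 ratio -0.54) and the hormone receptor genes ESR1 (-0.61) and PGR (-1.11) were among the lower ones. TFF1 (0.52), SPDEF (0.35) and GATA3 (0.27) were among the higher. Of 9 immune markers only CD68, a lysosomal gene, reached 1 FPKM (1.37 in shNT, 5.84 in shRON), while PTPRC, CD3E, LYZ and TYROBP were listed at 0 in both. The immune markers summed to 1.99 FPKM in shNT and 6.85 in shRON, and the fibroblast markers to 4.14 and 5.86. The endothelial markers summed to 0.299 and 0.160 FPKM, and the basal epithelial markers to 7.62 and 7.48. The part of such markers in the differences below was not tested, and in bulk RNA fewer cells of a type and less RNA per cell cannot be told apart.

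STAT2, the STAT that acts mainly downstream of interferon receptors and is part of ISGF3 with IRF9, had 44.5 FPKM in shNT against 100.3 in shRON. It became the most abundant of the 9 genes in shRON, from the second place in shNT. Its FPKM was 2.25 times as high in shRON, with a 95% interval of 2.16 to 2.35 from an estimated 2990 and 6580 fragments. Such intervals reflect counting alone and are approximate, and the spread between cultures is not in them. Its log2 ratio was 1.15, and 2.47% of measured genes had a higher one. STAT2 lies on the minus strand of chromosome 12 (hg19, 56735381 to 56754037). Both of its transcripts were higher: NM_005419.3 went from 30.2 to 76.7 FPKM and NM_198332.1 from 14.3 to 23.6. The longer one thereby made up 67.9% of the gene's sum in shNT and 76.5% in shRON. How Cufflinks divides fragments between transcripts that differ by few bases is an estimate.

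IRF9, the DNA-binding subunit of ISGF3, had 23.3 FPKM in shNT against 39.6 in shRON. The shRON level was 1.69 times the shNT level (counting interval 1.53 to 1.88), and the log2 ratio of 0.74 was exceeded by 6.45% of measured genes. The level of STAT2 over that of IRF9 was 1.91 in shNT and 2.54 in shRON. The authors' table gives IRF9 1 transcript on the plus strand of chromosome 14 (24630422 to 24635774), the gene whose promoter with the motif TTCTGGGAA is printed above. In the GENCODE v44 annotation lifted to GRCh37, a protein-coding gene model on the same strand covers 5240 bases of this span, so some fragments could belong to either. The neighbour RNF31, which ends 552 bases upstream, had 5.57 FPKM in shNT against 7.64 in shRON (log2 ratio 0.40).

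STAT3, the main transducer of cytokines of the IL-6 family, had 53.9 FPKM in shNT against 68.5 in shRON. It was the most abundant of the 9 genes in shNT and the third in shRON, where its interval overlapped that of IRF7. This was a ratio of 1.27 (counting interval 1.22 to 1.33) and a log2 ratio of 0.34, with 21.7% of measured genes above it. It is encoded on the minus strand of chromosome 17 (40465343 to 40540513). Its main transcript, NM_139276.2, went from 34.7 to 45.8 FPKM, and NM_003150.3 from 16.9 to 19.5. NM_213662.1, which encodes the shorter beta form, went from 2.24 to 3.17 FPKM and made up 4.15% and 4.64% of the sum. The 3 transcripts thus kept nearly the same shares in both libraries.

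STAT5A and STAT5B, the paralogous STATs of prolactin and growth hormone signalling, both stood higher in shRON but by different sizes. STAT5A had 1.76 FPKM in shNT against 7.97 in shRON, the lowest level of the 9 genes in each library. That is 4.54 times as high, with a counting interval of 3.66 to 5.65 from an estimated 105 and 476 fragments. Its log2 ratio of 1.70 was the highest of the 9, and 0.816% of measured genes were above it. The counting interval of its FPKM ratio overlapped that of IRF1 (3.19 to 4.61), so the order of STAT5A and IRF1 is uncertain. STAT5B had 7.92 FPKM in shNT against 12.8 in shRON, a ratio of 1.61 (counting interval 1.46 to 1.79) and a log2 ratio of 0.63. The intervals of the ratios of the 2 paralogs did not overlap. STAT5B exceeded STAT5A by 4.51 times in shNT and by 1.60 times in shRON, and STAT5A made up 18.2% and 38.4% of their sum. That sum was 9.68 FPKM in shNT and 20.8 FPKM in shRON.

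The STAT5 paralogs share part of their sequence. In GENCODE transcripts of 4301 and 5089 bases, 11.9% of the 50-base windows of STAT5A occurred exactly in STAT5B, and 10.1% of those of STAT5B occurred in STAT5A. The sources used here do not say how the authors divided fragments that match both genes. STAT5B (minus strand, 40351195 to 40428424) and STAT5A (plus strand, 40439565 to 40463961) lie 11141 bases apart on chromosome 17 in the authors' table. STAT3, on the minus strand, lies 1382 bases beyond STAT5A, and its end, not its transcription start, faces STAT5A. The 3 adjacent genes had log2 ratios of 0.63, 1.70 and 0.34. The GENCODE gene model of STAT5B covers 1087 bases of the authors' span of STAT5A, on the opposite strand. The sources used here do not say whether strand was kept. Among 142 measured genes of the fixed lists, those with log2 ratios closest to that of STAT5A were CXCL11 (1.68), ISG15 (1.77) and OASL (1.78). This likeness is a difference between single ratios over 2 libraries, on the log2(FPKM + 1) scale. The search covered only lists chosen with earlier results of these data known, many of whose genes are interferon targets. Measured genes outside the lists were not compared, so the names depend on the choice of lists. As plain FPKM ratios, ISG15 (3.42) and OASL (3.45) had intervals that did not overlap that of STAT5A, and CXCL11 was measured only through shRON (0.0451 to 2.35 FPKM).

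STAT6, the transducer of interleukin-4 and interleukin-13, had 36.5 FPKM in shNT against 27.5 in shRON. It was the one gene of the 9 with a lower level in shRON. Its shRON level was 0.753 times the shNT level (counting interval 0.705 to 0.803) and its log2 ratio -0.40, with 16.5% of measured genes below it. It did not reach the 1.5-fold rule. STAT6 lies on the minus strand of chromosome 12 (57489187 to 57505196), 735150 bases from STAT2. The dominant transcript, NM_003153.4, went from 31.9 to 21.9 FPKM and made up 87.6% and 79.9% of the sum. The other 5 transcripts stayed at or under 2.65 FPKM in both libraries. NAB2, a corepressor gene that overlaps STAT6 by 73 bases on the opposite strand, was also lower, at 16.7 FPKM in shNT against 11.0 in shRON (log2 ratio -0.56).

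IRF1, an early interferon-gamma target and activator of antigen-presentation genes, had 2.82 FPKM in shNT against 10.8 in shRON. It ranked eighth of the 9 genes in each library. Its level was 3.82 times as high in shRON, with a counting interval of 3.19 to 4.61 from an estimated 152 and 559 fragments. The log2 ratio of 1.62 was exceeded by 0.985% of measured genes. IRF1 has 1 transcript in the authors' table, on the minus strand of chromosome 5 (131817301 to 131826465), and is the gene whose promoter with the motif TTCCCCGAA is printed above. On the opposite strand, the GENCODE annotation places a protein-coding gene model over all 9165 bases of this span and the antisense gene IRF1-AS1 over 7094 of them, and without strand their reads cannot be told apart.

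IRF2, which competes with IRF1 for the same sites, had 7.38 FPKM in shNT against 14.4 in shRON. Between the libraries it differed 1.95 times (counting interval 1.67 to 2.29), a log2 ratio of 0.88. IRF2 was thus higher together with IRF1, by a smaller ratio whose interval did not overlap that of IRF1. Its level exceeded that of IRF1 in both libraries. It has 1 transcript, on the minus strand of chromosome 4 (185308876 to 185395726), and its interval overlapped that of STAT5B in each library.

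IRF7, the factor that drives interferon-alpha genes after infection, had 36.4 FPKM in shNT against 70.7 in shRON. It moved from the fourth to the second place among the 9. Its FPKM ratio was 1.94 (counting interval 1.80 to 2.10), and 3.88% of measured genes had a log2 ratio above its 0.94. All 3 transcripts, on the minus strand of chromosome 11 (612555 to 615999), were higher in shRON. NM_001572.3 went from 30.2 to 49.1 FPKM, NM_004029.2 from 3.91 to 13.8 and NM_004031.2 from 2.29 to 7.83. The first transcript made up 82.9% of the sum in shNT and 69.5% in shRON, so the 2 less abundant forms took a larger share in shRON. The flanking gene PHRF1, 333 bases away, was at 5.74 and 6.14 FPKM (log2 ratio 0.08).

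**Figure D3:**
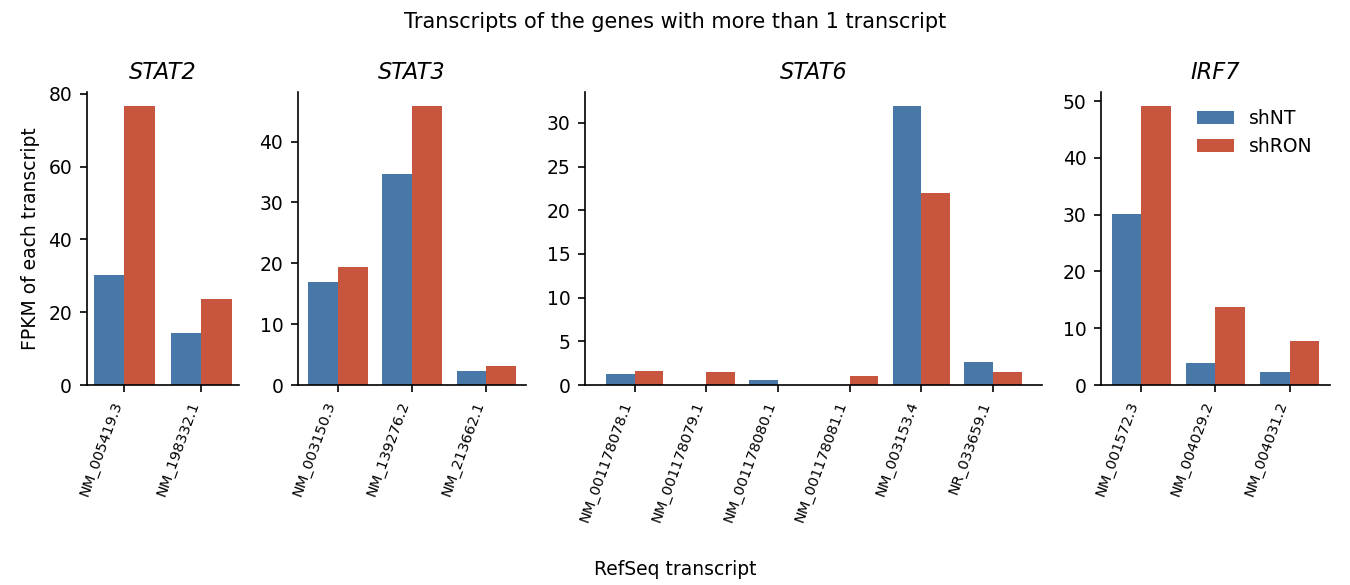
FPKM (linear axes, each from 0 and on its own scale) of every transcript of STAT2, STAT3, STAT6 and IRF7 in shNT and shRON. The summed value was carried mainly by 1 transcript in STAT6 (87.6% in shNT) and IRF7 (82.9%), and shared more evenly in STAT2 and STAT3.

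The order of levels changed between the libraries. In shNT it ran STAT3, STAT2, STAT6, IRF7, IRF9, STAT5B, IRF2, IRF1, STAT5A, and the counting intervals of STAT6 and IRF7, and of STAT5B and IRF2, overlapped. In shRON it ran STAT2, IRF7, STAT3, IRF9, STAT6, IRF2, STAT5B, IRF1, STAT5A, and those of IRF7 and STAT3, and of IRF2 and STAT5B, overlapped. The highest gene exceeded the lowest by 30.6 times in shNT and 12.6 times in shRON. The 9 genes summed to 214 FPKM in shNT and 352 FPKM in shRON, of which STAT2 made up 20.8% and 28.5%.

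T47D cells are aneuploid, so each gene was set beside the measured genes within 2.5 Mb on either side. The regional median log2 ratios lay between -0.37 and 0.12, over 23 to 101 genes, and 8 of the 9 genes lay above theirs. IRF1 was in the lowest region (-0.37) and 1.99 above it, and STAT5A was 1.88 above its region (-0.18). STAT2 (1.40 above) and STAT6 (-0.12 relative to its region) both lay among genes that were slightly lower, with regional medians of -0.25 and -0.28. The ratio of STAT6 was thus close to that of its surroundings, and that of STAT2 was not.

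**Figure D4:**
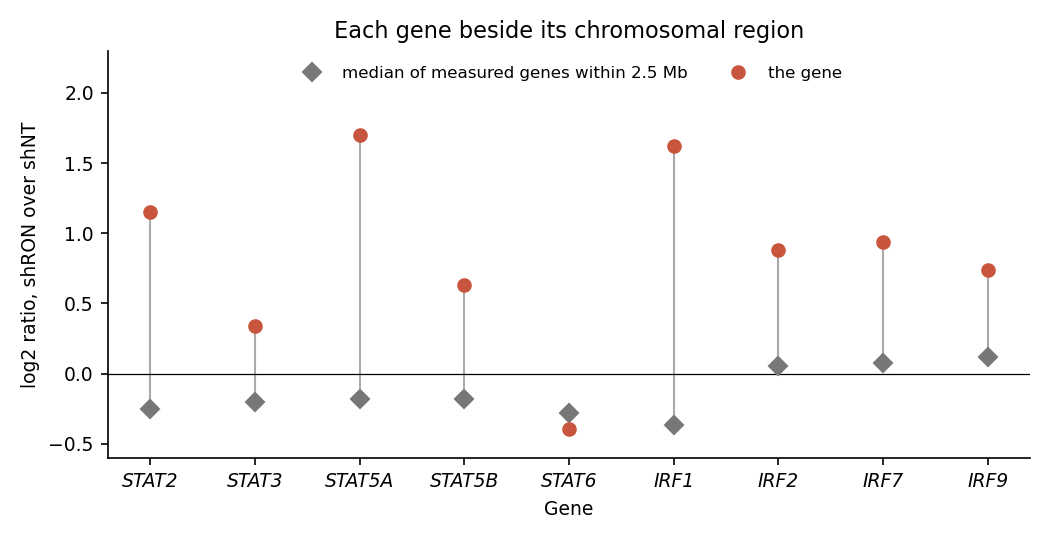
log2 ratio of each STAT and IRF gene (circles) and the median of the measured genes within 2.5 Mb (diamonds). The diamonds stay between -0.37 and 0.12, and STAT6 is the one circle below its diamond.

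Beside the counts in this and the following lists, 9.94% of all measured genes were higher and 8.85% lower by 1.5-fold. At 2-fold these shares were 3.32% and 2.17%. Of 7 other genes from or named after both families, 4 were measured, 0 were higher by 1.5-fold and 1 lower, with a median of 0.23. IRF3, the constitutive partner of IRF7, went from 15.1 to 21.5 FPKM (log2 ratio 0.49). The corepressor genes IRF2BP2 (41.9 to 57.0 FPKM, 0.44) and IRF2BP1 (17.3 to 17.7, 0.03) stayed under 1.5-fold. IRF5, which counts as the lower gene, was measured only through shNT, at 1.72 and 0.727 FPKM. The blood-cell factors IRF4 and IRF8 were listed at 0 in both libraries, and STAT4 stayed at or under 0.0212 FPKM.

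Among interferons and their receptors, 5 of 8 measured ones passed 1.5-fold upward and 0 downward (median 0.80). The interferon-lambda genes were low in shNT: IL29 was at 0.928 FPKM in shNT against 6.56 in shRON (1.97), IL28A at 0.480 and 1.73, and IL28B at 1.26 and 2.28. IL29 and IL28A reached 1 FPKM only through shRON and are both counted in the 5, so that count and the median rest partly on the filter. IL28A and IL28B are near-identical, so their shares are uncertain. IFNB1 stood at 0.155 and 0.991 FPKM, under the filter, and IFNA1, IFNA2 and IFNG were listed at 0 in both. Of the receptor chains, IFNAR2 (1.13 to 3.26 FPKM, 1.00), IFNGR2 (25.9 to 46.4, 0.81) and IFNGR1 (8.08 to 14.6, 0.78) were higher, while IFNAR1 (13.7 to 15.5, 0.17) and IL10RB (12.7 to 12.4, -0.03) differed little. Of the 4 JAK kinases, JAK2 (1.18 to 2.44 FPKM, 0.66) and TYK2 (7.31 to 11.7, 0.61) passed 1.5-fold. JAK1, by far the most abundant, was at 50.6 and 38.0 FPKM (-0.40), and JAK3 at 1.28 and 1.13 (-0.10).

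Ligands and receptors that act through STAT3, STAT5 and STAT6 had a median below 0. Of 14 measured genes, 3 were lower by 1.5-fold (8.85% of all measured genes) and 1 higher (9.94%), and the median was -0.22. The lower ones were the interleukin-6 receptor gene IL6R (3.53 to 1.46 FPKM, -0.88), the interleukin-4 receptor gene IL4R (1.89 to 0.654, -0.80) and the prolactin receptor gene PRLR (226 to 145, -0.63). LIFR was higher from a low level (0.255 to 1.34 FPKM, 0.90). In this list 2 genes, LIFR among them, were measured only through shRON, and 2, IL4R among them, only through shNT. The shared receptor subunit IL6ST (45.6 to 39.0 FPKM), GHR (30.3 to 22.7), OSMR (17.3 to 17.8) and IL13RA1 (10.1 to 10.6) stayed under 1.5-fold. PRLR and STAT5A, receptor and transducer of the same hormone, thus had log2 ratios of opposite sign in these libraries.

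Of 16 measured feedback and inhibitor genes, 3 passed 1.5-fold upward (9.94% of all measured genes) and 1 downward (8.85%), with a median of 0.12. SOCS1, an inhibitor of JAK kinases that interferons induce, was at 0.564 FPKM in shNT against 2.88 in shRON (1.31) and so was measured only through shRON, and USP18, which binds IFNAR2 and dampens its signalling, at 16.7 and 37.1 (1.11). PIAS4 was at 7.62 and 12.4 FPKM (0.64), and PIAS3, a STAT3 inhibitor, at 39.6 and 25.0 (-0.64). The phosphatase genes PTPN1 (30.7 to 29.9 FPKM) and PTPN11 (34.4 to 31.2) and the STAT5 target CISH (7.54 to 7.06) differed little. SOCS3 stayed at or under 0.162 FPKM.

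Of 14 measured kinases and adaptors that activate IRF3 and IRF7, 3 were higher and 0 lower (median 0.21). MYD88, the adaptor that links toll-like receptors to IRF7, was at 28.5 FPKM in shNT against 80.3 in shRON (1.46). OPTN (34.9 to 59.7 FPKM, 0.76) and TRAF3 (3.30 to 5.92, 0.69) also passed, and TICAM1 was at 6.86 and 10.2 (0.51). The kinase gene TBK1 (27.0 to 27.7 FPKM, 0.04), MAVS (10.4 to 11.8), IRAK1 (18.9 to 21.9), AZI2 (19.2 to 24.0) and CHUK (13.4 to 10.7, -0.30) stayed under 1.5-fold.

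Genes known as targets of ISGF3 and of IRF1 stood higher in shRON in most cases. Of 36 ISGF3 target genes, all measured, 34 were higher by 1.5-fold and 0 lower (median 1.30). The 26 at 2-fold or more, from 1.00 to 3.55 on the log2 scale, were MX2, HERC5, TRIM22, RSAD2, IFI27, OASL, ISG15, HERC6, EPSTI1, IFIH1, IFI44L, IFIT3, XAF1, CMPK2, IFIT2, SAMD9, IFITM1, DDX58, OAS1, SAMD9L, PLSCR1, DDX60, PARP14, OAS2, IFI44 and IFI6. Of 25 measured targets of IRF1 and interferon-gamma, 17 were higher and 0 lower (median 1.04), and 4 of the 25 were measured only through shRON. The 13 at 2-fold or more were CXCL10 (1.26 to 29.7 FPKM), GBP1 (1.75 to 12.4), CASP1 (1.51 to 8.52), CXCL11, TNFSF10 (23.2 to 72.6), GBP4, BATF2, TAP2, SOCS1, TRIM21, IDO1, TAP1 and GBP3. The 4 genes measured only through shRON, CXCL11, SOCS1, IDO1 and GBP3, are counted in both the 17 and the 13. They entered the list only because they were high in shRON, so both counts and the median rest partly on the filter. CIITA (0.250 to 0.282 FPKM) and CXCL9 (listed at 0) stayed unmeasured, and B2M was at 842 and 789 FPKM (-0.09).

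Targets of STAT3, STAT5 and STAT6 went both ways. Of 18 measured STAT3 targets, 5 were higher (9.94% of all measured genes) and 2 lower (8.85%), with a median of 0.24. SERPINA3 (15.0 to 45.3 FPKM, 1.53), the adhesion gene ICAM1 (9.85 to 26.3, 1.33) and VEGFA (24.7 to 55.0, 1.13) were higher, and TIMP1 (21.7 to 9.11, -1.17) was lower by more than 2-fold. CCND1, which encodes cyclin D1 and is in the STAT3 and STAT5 lists, was at 38.9 and 19.0 FPKM. Of 9 measured STAT5 targets, 2 were higher, ID1 (6.09 to 16.8 FPKM, 1.33) and ELF5, a regulator of mammary alveolar cells (106 to 178, 0.74), and 1 lower, CCND1, with a median of 0.05. BCL6, in all 3 lists, was at 30.3 and 40.5 FPKM (0.41). Among 6 measured STAT6 targets, 1 was higher, SOCS1, and 2 lower, CCL2 (2.49 to 0.546 FPKM, -1.17) and IL4R, with a median of -0.19. Each of these 3 genes reached 1 FPKM only in the library where it was higher, and at a mean of 5 FPKM or more 0 of the STAT6 targets were called in either direction. The median of the STAT6 targets was then 0.16, and with no filter it was 0, so its sign depends on the filter. The milk protein genes CSN2 and CSN3, classical STAT5 targets, were listed at 0 in both libraries.

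**Figure D5:**
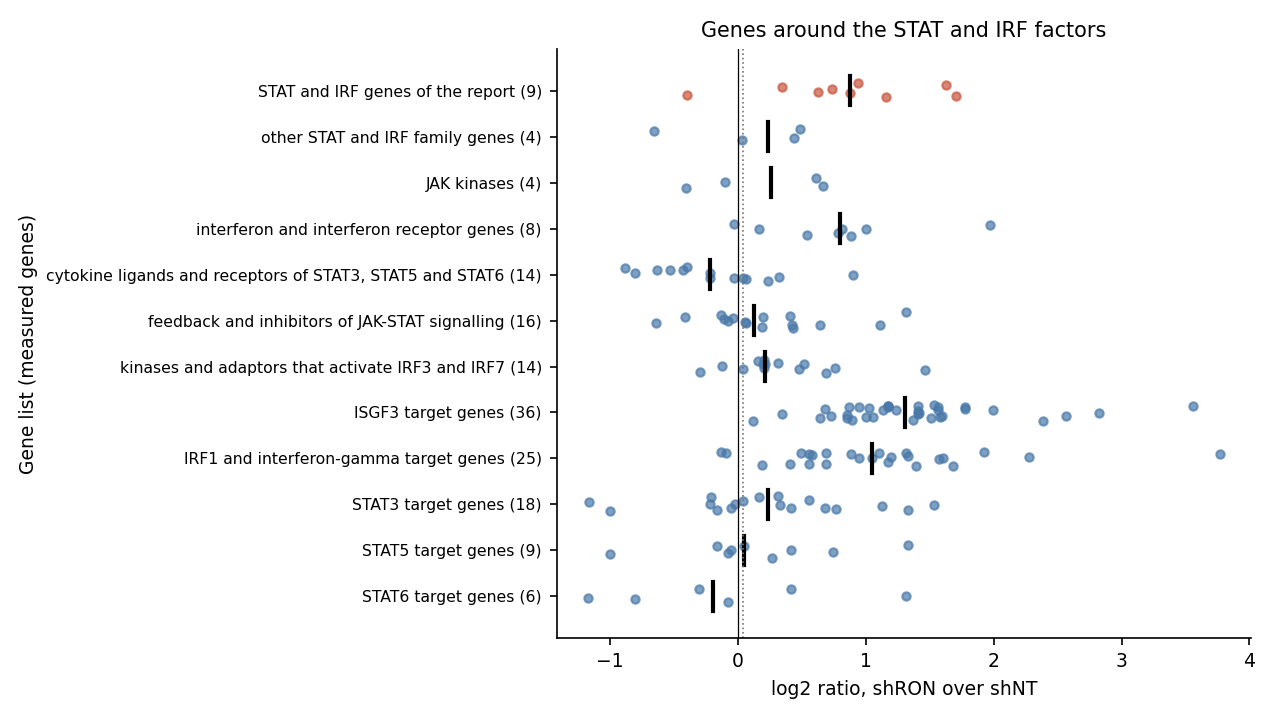
log2 ratio of every measured gene of the STAT and IRF set and of 11 lists around it; black bars are medians and the dotted line is the median of all measured genes (0.04). The ISGF3 targets (median 1.30) and the IRF1 targets (1.04) lie to the right, and the STAT5 targets (0.05) and the cytokine receptors (-0.22) do not.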

How the data were processed

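RNA was measured in 1 shNT and 1 shRON library of T47D cells, grouped by their treatment labels. The name of the control table calls the cells wild type, and the label was followed. Per the labels' protocols, TRIZOL-extracted total RNA was made into TruSeq libraries. Each deposited table gives FPKM and coverage for 37839 RefSeq transcripts, in a Cufflinks-style layout per the file headers, on hg19 per the submitters' processing notes. The deposited FPKM values were not rescaled between libraries here; the sources used here name neither the aligner nor versions. The deposited coverage signal (mean read depth over a transcript) was not divided by library size.

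Tables were joined by transcript and FPKM was summed per gene. Genes with a transcript of 200 bases or more and 1 FPKM or more in either library were measured (12493). The log2 ratio is log2(FPKM + 1) of shRON minus that of shNT, which understates the ratio of low genes. Fragments were estimated as coverage times length over the median bases of a read pair, 244 in shNT and 242 in shRON, and gave approximate 95% Clopper-Pearson intervals of ratios and exact Poisson intervals of levels, for counting error only. The intervals and fold rule were tried on simulated counts that held counting error alone. This cannot check the fragment estimate or the spread between cultures. Only genes with shNT levels above those of STAT5A and IRF1 were judged, so it does not cover these genes. The genes described, the lists and the rules were chosen with earlier results of these data known, and 2 genes of the list of other family genes are not reported here. Named genes are the 9 factors, MST1R, list genes at 2-fold or the 4 with the largest ratios, and signalling genes at 10 FPKM or more in both libraries; neighbours, cell markers and the other list genes given singly (such as CISH, SOCS3, IFNB1, B2M and CSN2) were chosen after their values were seen. Alternatives covered the pseudocount, filter, transcripts, scaling and coverage. Python 3.11.15, pandas 2.3.3, scipy 1.17.1 and statsmodels 0.14.6 were used.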

Additional observations from a re-analysis of the deposited data

How the results depend on the processing

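Under 10 alternatives, each of the 9 genes kept the sign of its log2 ratio wherever it was measured. Several alternatives could not have changed this. A pseudocount cannot change a sign, and the filters and the status rule leave the ratio of a measured gene as it was. Using the most abundant transcript changes nothing for the 5 genes with 1 transcript. The tallies below therefore overstate how many settings were a real check. STAT2, IRF1, IRF2, IRF7 and IRF9 stayed past 1.5-fold in all 10. STAT5A did so in the 9 that measured it, since it was under a mean of 5 FPKM, and its ratio ranged from 0.94 with a pseudocount of 5 to 2.12 with one of 0.1. STAT5B passed in 8 of 10, and was at 0.46 with a pseudocount of 5 and 0.58 with the trend of ratio over level removed. STAT3 (0.30 to 0.54) and STAT6 (-0.52 to -0.12) never passed. The count of 7 genes higher was 6 or 7, and the count lower stayed 0. No paired analysis was possible because each hairpin has 1 library.

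With a pseudocount of 5 the median of the 9 genes was 0.65. In the same setting the counts higher were 0 for JAK kinases, 2 for interferons and receptors, 0 for cytokine receptors, 1 for feedback genes and 0 for STAT6 targets, and the counts lower were 0 for other family genes, 1 for cytokine receptors, 0 for feedback genes and 0 for STAT6 targets. The medians there were 0.36 for interferons and receptors, 1.07 for ISGF3 targets and 0.54 for IRF1 targets, and 4.15% of all measured genes were higher and 3.73% lower. With a pseudocount of 0.1, 5 cytokine receptors were lower and the ISGF3 median was 1.40. At a mean of 5 FPKM or more, fewer genes are tested: the counts higher were 1 for JAK kinases, 2 for interferons and receptors, 0 for cytokine receptors, 11 for IRF1 targets and 0 for STAT6 targets, the counts lower were 0 for other family genes, 1 for cytokine receptors and 0 for STAT6 targets, and the median of other family genes was 0.44. With no filter, the medians were 0.0015 for other family genes, 0.17 for interferons and receptors and 0.77 for IRF1 targets, and 5.61% of genes were higher and 4.83% lower. With regional medians subtracted, the counts higher were 1 for other family genes, 1 for JAK kinases, 3 for STAT3 targets and 1 for STAT5 targets, the count lower was 0 for feedback genes, and the medians were 1.16 for ISGF3 targets and -0.10 for STAT5 targets. The JAK count higher was 1 with ratios centred on the median of all genes and with the trend removed. With the most abundant transcript only, 2 cytokine receptors were higher. The cause of the shifts with the pseudocount and scaling was not tested.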
